A study of Arabidopsis thaliana with 8 samples.

Results

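The genes described here encode nuclear proteins of the auxin response in Arabidopsis: the Aux/IAA repressors and 7 auxin response factors (ARFs). No microRNA or trans-acting siRNA is known to target these ARFs, which are ARF1, ARF5, ARF7, ARF9, ARF11, ARF18 and ARF19. The genes were chosen by locus code, with earlier results of these data known. In all 36 genes were named (29 Aux/IAA and 7 ARFs), and 30 of these (23 Aux/IAA and 7 ARFs) were among the 24859 mRNA loci counted. IAA5, IAA20, IAA30, IAA31, IAA33 and IAA34 were not analysed here. All 30 loci passed the filter on low counts, so that every one of them was tested together with the other loci (24722 in all).

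The measurement was the number of small RNA reads on each mRNA locus in 24-day-old plantlets grown in vitro. Plants were the urt1-1 xrn4-3 double mutant, the xrn4-3 mutant, the urt1-1 mutant and WT, all of the Col-0 accession, with 2 biological replicates per genotype and 8 libraries in all. Both mutations are T-DNA insertions present in the whole plant: urt1-1 disrupts the uridylyltransferase URT1, which adds uridines to mRNA 3′ ends, and xrn4-3 disrupts the cytoplasmic 5′-3′ exoribonuclease XRN4, which degrades uncapped mRNAs. The comparisons ask whether loss of both enzymes changes the small RNAs that come from an mRNA locus. Per the study's methods, biological replicates were plants of a genotype from separate growth periods, some of them from another seed source, and the labels do not say whether a replicate number marks the same period in every genotype.

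Depth and agreement of the libraries were as follows. Between 6045353 and 30064224 reads were counted per library, of which 6678 to 52450 lay on the 30 loci. The most deeply sequenced library was urt1-1 xrn4-3 replicate 2. Levels are given as CPM, that is counts per 1000000 counted reads of the library after scaling with TMM, a correction for differences in composition between libraries. The library labelled xrn4-3 replicate 2 stood apart from its partner: over all loci its log2 levels correlated more closely with both urt1-1 xrn4-3 libraries (r = 0.918 with replicate 1 and 0.917 with replicate 2) than with xrn4-3 replicate 1 (r = 0.891). It also held 271 CPM at the URT1 locus itself, against 5.93 to 15.7 CPM in the other 7 libraries. At XRN4, reads were present in every library, at 6.25 to 9.96 CPM in the 4 libraries with xrn4-3 and 11.1 to 13.0 CPM in the other 4; small RNA reads over a T-DNA-disrupted locus do not test the genotype. The leaf marker loci RBCS1A and LHCB1.3 had at least 227 and 1053 CPM in every library. Changes or calls at the 30 loci that involve xrn4-3 are given with and without the library that stood apart.

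Auxin acts by removing repressors. Aux/IAA proteins bind ARF transcription factors and recruit the co-repressor TOPLESS, and auxin joins them to the F-box receptors TIR1 and AFB, after which they are ubiquitinated and degraded. ARF5, ARF7 and ARF19 are activators of auxin-responsive genes, and ARF1, ARF9, ARF11 and ARF18 are classed as repressors. Many Aux/IAA genes are themselves induced by auxin, so that the family forms a negative feedback loop, and stabilised forms of single members such as IAA12 or IAA14 block embryonic patterning or lateral root formation. In plants, small RNAs of the siRNA class are made when an RNA-dependent RNA polymerase copies an aberrant transcript, and reads on an mRNA locus can also be fragments of the mRNA. Read sizes were not analysed here, so the counts do not separate these sources, and in whole plantlets fewer cells of a type and less RNA per cell cannot be told apart.

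The stretch that makes an Aux/IAA protein an auxin target is shared by nearly the whole family. It is shown for the 7 loci whose small RNAs rose in the double mutant and for IAA14, the most abundant locus, because it is both the best known feature of these transcripts and a place where relatives resemble each other. Capitals mark the codons of the degron core (glycine, tryptophan and a pair of prolines), with 1 codon on either side, 5′ to 3′ on the coding strand, from the RefSeq gene models of TAIR10.1.
IAA1, chr4:8361442-8361459 (+), core from codon 58: gttGGATGGCCTCCAgtg
IAA2, chr3:8181393-8181410 (-), core from codon 63: gttGGTTGGCCACCAgtg
IAA12, chr1:1241064-1241081 (+), core from codon 72: gtaGGATGGCCACCAatt
IAA13, chr2:14115239-14115256 (-), core from codon 78: gttGGATGGCCTCCTata
IAA16, chr3:1289736-1289753 (-), core from codon 73: gtgGGATGGCCACCGgta
IAA26, chr3:5613668-5613685 (-), core from codon 106: gtgGGTTGGCCTCCGgtt
IAA28, chr5:9033818-9033835 (+), core from codon 51: gtgGGATGGCCGCCGgtg
IAA14, chr4:8349484-8349501 (-), core from codon 79: gtgGGTTGGCCACCGgtg

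The core, searched in frame on the coding strand as GGNTGGCCNCCN, was found in 22 of the 23 Aux/IAA loci. IAA32 was the exception, and none of the 7 ARF loci had it. Among 24405 coding sequences of the loci counted, 33 (0.135%) held it. The presence of the core therefore did not separate the 7 loci that rose from the other Aux/IAA loci.

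Because relatives are alike, a small RNA can match more than 1 of them, and the authors kept the best alignments of a read, which can be several. The longest stretches shared by the mRNAs of the pairs that rose together are shown because small RNAs from them cannot be assigned to 1 locus.
IAA1 and IAA2, 29 nt, chr4:8361697-8361725 (+) and chr3:8181133-8181161 (-): ggtgatgttccatgggacatgttctcttc
IAA12 and IAA13, 35 nt, chr1:1241087-1241121 (+) and chr2:14115199-14115233 (-): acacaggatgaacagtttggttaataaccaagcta

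IAA1 shared a stretch of the same length, 29 nt, with IAA4. Longer stretches were shared by IAA3 and IAA4 (42 nt), IAA7 and IAA14 (41 nt), and ARF11 and ARF18 (38 nt). None of these loci was called in urt1-1 xrn4-3 against WT by the likelihood ratio test, so a shared stretch did not mark the pairs that rose. Such stretches were short beside the loci. Windows of 21 nt that also occurred elsewhere in the genome made up between 0.0644% (IAA29) and 6.44% (IAA13) of the windows of a gene. These windows were taken over the gene span in TAIR10.1, which can be longer than the locus counted (3065 nt against 1807 nt for IAA13). IAA1 shared 22 windows with IAA2 (2.16% of its own), and IAA12 shared 22 with IAA13 (1.19%). Reads on these windows could be counted at both loci of a pair, and the number of such reads was not analysed here.

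IAA28 is the Aux/IAA transcript known to be cut by microRNA miR847, a small RNA outside this table. The mature miR847 sequence (chr1:2165675-2165695, +) is shown with its seed, bases 2 to 8, in capitals. Below it is the best antisense match in IAA28 (chr5:9033877-9033897, +), where capitals are the bases that form A:U or G:C pairs with miR847.
miR847: tCACTCCTcttcttcttgatg
IAA28 site: gATgAAGAAGAAGgaGAGTGA

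The site lies in the coding sequence and leaves 3 bases unpaired and 1 G:U pair. The G:U pair and 1 of the unpaired bases face the seed, so the seed match is not complete. The site was the best match among the 30 loci. Of all 24405 mRNAs searched, 66 (0.270%) had a match at least as good, so the match alone singles out no transcript.

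Levels in the plantlets differed widely between members. Per kb of locus, IAA14, a repressor of lateral root formation, was highest in 5 of 8 libraries, at 141 and 154 CPM per kb in urt1-1 xrn4-3, 233 and 116 in xrn4-3, 429.8 and 577 in urt1-1, and 252 and 421 in WT. IAA2 exceeded it in both urt1-1 xrn4-3 libraries, at 273 and 604 CPM per kb, and in xrn4-3 replicate 2, at 129 CPM per kb. In WT the order was IAA14 (mean 337 CPM per kb), IAA3 (43.9), IAA19 (43.7), IAA16 (16.8) and IAA2 (16.3). The WT replicates of IAA3 and IAA19 overlapped, as did those of IAA16 and IAA2, so these neighbours did not differ beyond their spread. The 7 ARF loci lay close together and low, between 0.873 and 2.26 CPM per kb in WT. IAA28 and IAA15 had the lowest WT means, and their replicates overlapped, at 0.626 and 0.514 CPM per kb for IAA28 (12 and 7 reads) and 0.241 and 0.903 CPM per kb for IAA15. Over the 30 loci the median was 3.98 and 4.49 CPM per kb in urt1-1 xrn4-3, 2.37 and 2.86 in xrn4-3, 2.36 and 2.48 in urt1-1, and 2.39 and 2.56 in WT, whereas the median over all loci was between 2.00 and 2.49 in every library.

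**Figure D1:**
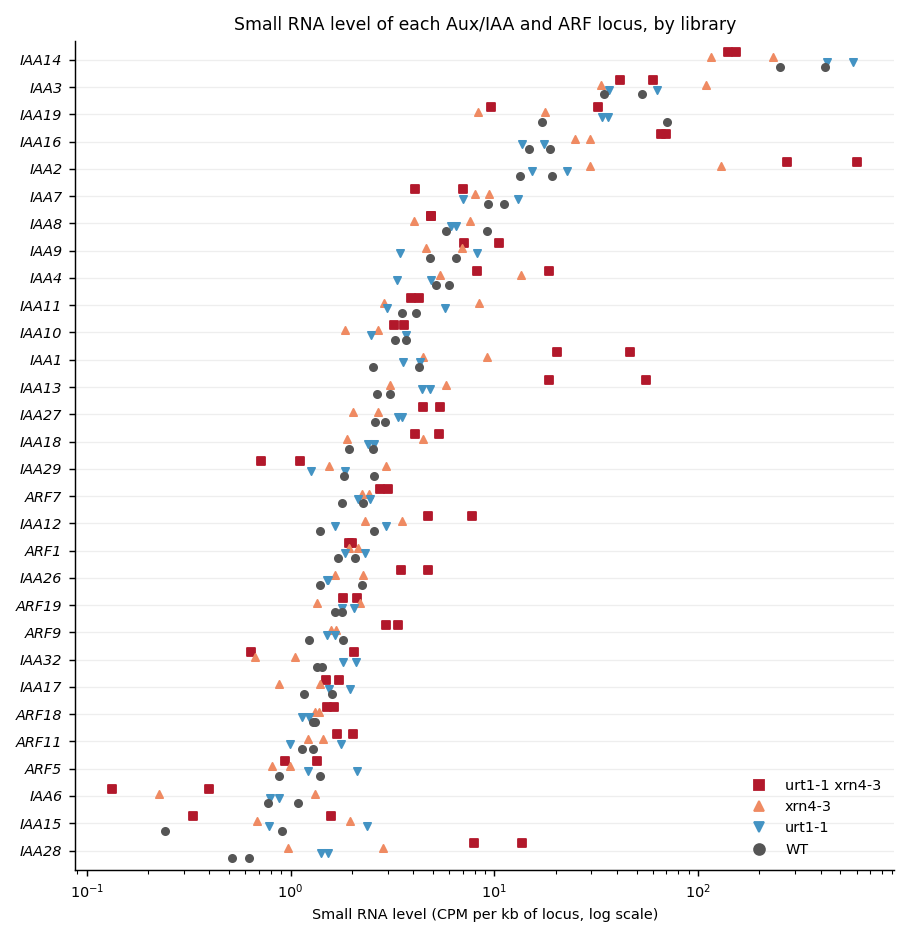
Small RNA level of each of the 30 loci in CPM per kb of locus (log scale), with a point for each library and a colour and shape for each genotype, ordered by the WT mean. Both urt1-1 xrn4-3 points of IAA2, IAA1, IAA13 and IAA28 lie far to the right of both WT points, whereas the ARF points crowd between 0.813 and 3.38 CPM per kb in all 8 libraries.

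In urt1-1 xrn4-3 against WT, small RNAs rose at 7 of the 30 loci (23.3%) and fell at none. Calls were made by the likelihood ratio test of edgeR at an adjusted p of 0.05. Of all loci tested, 10% were raised and 1.05% lowered. The members were chosen with earlier results of these data known, so their share is no test of the family. All 7 were Aux/IAA loci: IAA1, IAA2, IAA12, IAA13, IAA16, IAA26 and IAA28. The stricter quasi-likelihood test of edgeR kept 6 of them and lost IAA26, with 7.31% of all loci raised. The median log2 fold change was 0.64 over the 23 Aux/IAA loci and 0.28 over the 7 ARF loci, beside 0.01 over all loci. At an unadjusted p under 0.05 there were 14 loci (21.7% of all loci were), 3 of them lower in urt1-1 xrn4-3 (IAA6, IAA14 and IAA29). At 16 of the 30 loci the urt1-1 xrn4-3 libraries were each higher than either WT library (30.1% of all loci), and at 5 each was lower (23.0% of all loci). The median of all loci rests on the scaling: with genome-mapped reads as library sizes it moved up by 0.73 on the log2 scale, and relative to that median the 7 loci differed by 1.15 to 4.85. The xrn4-3 libraries enter this comparison through the shared estimate of the spread. Without replicate 2 of xrn4-3, 10 of the 30 were raised (11.5% of all loci), the 7 and IAA4, IAA18 and ARF9, and without replicate 1 these 10 as well (11.4% of all loci).

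The largest change of the 30 was at IAA2 (AT3G23030, chr3:8180768-8181800, TAIR10), which with its sister gene IAA1 (AT4G14560, chr4:8361058-8361986) encodes an early auxin-induced repressor. IAA2 had 282 and 624 CPM in urt1-1 xrn4-3, 30.4 and 133.5 CPM in xrn4-3, 15.9 and 23.4 CPM in urt1-1, and 19.9 and 13.8 CPM in WT. The urt1-1 xrn4-3 libraries were above every other library, and its log2 fold change against WT was 4.75 ± 0.69, a factor of 26.9 (SE, n = 2 libraries each; edgeR adjusted p = 2.18e-07, and 0.00441 by the quasi-likelihood test). IAA1 was less abundant, with 18.8 and 42.9 CPM in urt1-1 xrn4-3, 4.16 and 8.55 CPM in xrn4-3, 3.33 and 4.02 CPM in urt1-1, and 2.37 and 3.96 CPM in WT. It rose by 3.297 ± 0.53 on the log2 scale (edgeR adjusted p = 5.56e-07, and 0.0035 by the quasi-likelihood test), and again no other library reached either urt1-1 xrn4-3 library.

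The second pair of relatives was IAA12 (BODENLOS, AT1G04550, chr1:1240375-1242120), which restrains ARF5 in the embryo, and IAA13 (AT2G33310, chr2:14114281-14116087), which can act in its place. IAA13 had 33.6 and 101 CPM in urt1-1 xrn4-3, 5.55 and 10.4 CPM in xrn4-3, 7.96 and 8.77 CPM in urt1-1, and 5.56 and 4.79 CPM in WT. Its log2 fold change was 3.70 ± 0.56 (edgeR adjusted p = 2.04e-07, and 0.00324 by the quasi-likelihood test). In TAIR10.1 a gene on the opposite strand overlaps 1176 bp of the IAA13 gene, which spans 3065 nt there, whereas the counted locus spans 1807 nt. Whether the overlap lies within the counted locus was not analysed. The counting settings of the authors did not use strand, so reads of both genes could not be told apart inside a counted overlap. IAA12 changed less, with 8.27 and 13.6 CPM in urt1-1 xrn4-3, 4.03 and 6.13 CPM in xrn4-3, 2.89 and 5.11 CPM in urt1-1, and 2.44 and 4.48 CPM in WT. It rose by 1.68 ± 0.47 (edgeR adjusted p = 0.0063, and 0.0365 by the quasi-likelihood test), and the call was lost without WT replicate 1 or without urt1-1 xrn4-3 replicate 2.

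Of the related trio IAA18, IAA26 and IAA28, 2 passed the test. IAA28 (AT5G25890, chr5:9033415-9034834), a repressor of lateral root initiation, had 11.3 and 19.5 CPM in urt1-1 xrn4-3, 1.39 and 4.06 CPM in xrn4-3, 2.17 and 2.01 CPM in urt1-1, and 0.889 and 0.729 CPM in WT. It carried the second largest change of the 30, 4.23 ± 0.57 on the log2 scale (edgeR adjusted p = 1.24e-10, and 0.00178 by the quasi-likelihood test), from WT counts of 12 and 7 reads. IAA26 (AT3G16500, chr3:5612500-5614410), a repressor that also binds a viral replicase, had 6.67 and 9.01 CPM in urt1-1 xrn4-3, 3.15 and 4.32 CPM in xrn4-3, 2.89 and 2.92 CPM in urt1-1, and 2.67 and 4.27 CPM in WT. Its change was 1.20 ± 0.41 (edgeR adjusted p = 0.0357, and 0.0708 by the quasi-likelihood test), and it did not pass the threshold in 11 of 18 other settings, with adjusted p up to 0.425. IAA18 differed by 1.07 ± 0.45 (edgeR adjusted p = 0.118), short of the threshold.

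IAA16 (AT3G04730, chr3:1288612-1290602) passed the test, whereas its close relatives IAA7, IAA14 and IAA17 did not. It had 131 and 139 CPM in urt1-1 xrn4-3, 49.7 and 59.0 CPM in xrn4-3, 27.2 and 34.9 CPM in urt1-1, and 37.3 and 29.6 CPM in WT. The urt1-1 xrn4-3 libraries were above every other library, and the log2 fold change was 2.01 ± 0.47 (edgeR adjusted p = 0.000689, and 0.0167 by the quasi-likelihood test). Without WT replicate 2 the adjusted p was 0.0734.

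**Figure D2:**
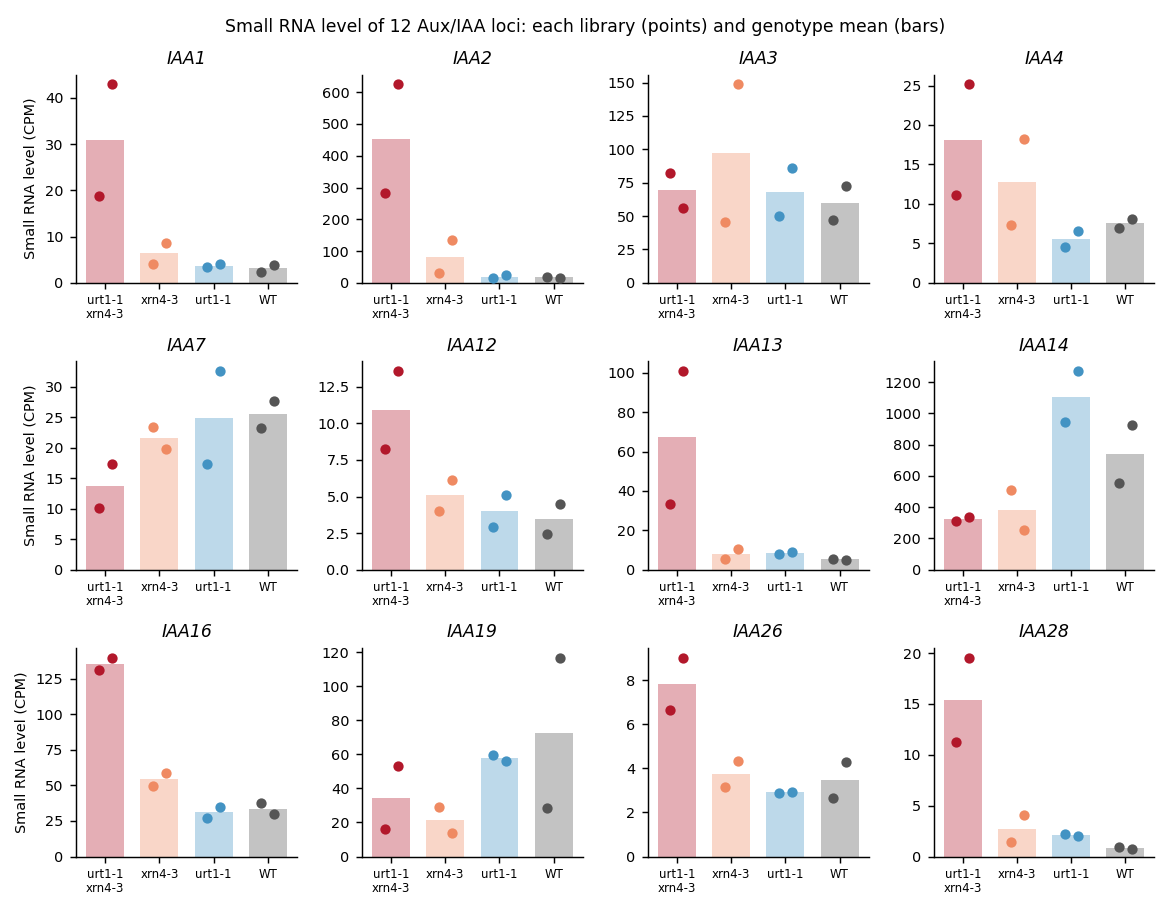
Small RNA level in CPM of 12 Aux/IAA loci, with a point for each library and bars for the genotype means, the 2 points of a genotype being replicate 1 (left) and replicate 2 (right). The 7 loci raised in urt1-1 xrn4-3 have both points of that genotype above all 6 other libraries, whereas IAA14 and IAA7 are lower there than in WT without passing the test.

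The relatives IAA7 and IAA14 lay in the other direction. IAA14 (AT4G14550, chr4:8347822-8350019), known as SOLITARY-ROOT in its stabilised form, had 309.9 and 339 CPM in urt1-1 xrn4-3, 512 and 254 CPM in xrn4-3, 945 and 1268 CPM in urt1-1, and 555 and 926 CPM in WT. Both urt1-1 xrn4-3 libraries lay below both WT libraries, yet the log2 fold change of -1.19 ± 0.56 missed the threshold (edgeR adjusted p = 0.189, and 0.283 by the quasi-likelihood test). IAA7 (AXR2, AT3G23050, chr3:8194679-8197153), a repressor of hypocotyl and root growth, had 10.11 and 17.3 CPM in urt1-1 xrn4-3, 23.4 and 19.9 CPM in xrn4-3, 17.4 and 32.5 CPM in urt1-1, and 23.2 and 27.7 CPM in WT. Its log2 fold change was -0.88 ± 0.48 (edgeR adjusted p = 0.271). Both urt1-1 xrn4-3 libraries lay below both WT libraries, and the other genotypes overlapped WT.

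Of the abundant loci that were not called, IAA3 (SHY2, AT1G04240, chr1:1128188-1129551), which limits root meristem size, had 82.4 and 56.3 CPM in urt1-1 xrn4-3, 45.8 and 149 CPM in xrn4-3, 49.9 and 85.9 CPM in urt1-1, and 46.9 and 72.8 CPM in WT. The groups overlapped and the log2 fold change was 0.21 ± 0.61, with a 95% interval of -0.98 to 1.40 (edgeR adjusted p = 0.885). In TAIR10.1 a gene on the opposite strand overlaps 640 bp of IAA3. IAA19 (MASSUGU2, AT3G15540, chr3:5264024-5265678), a repressor in tropic growth, had 15.9 and 53.4 CPM in urt1-1 xrn4-3, 29.4 and 13.8 CPM in xrn4-3, 59.6 and 55.9 CPM in urt1-1, and 28.3 and 116.5 CPM in WT. The 2 WT libraries of IAA19 were further apart than the genotype means, and its log2 fold change of -1.06 ± 0.71 did not pass (edgeR adjusted p = 0.407).

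IAA4 (AT5G43700, chr5:17550233-17551581), the sister of IAA3, had 11.1 and 25.1 CPM in urt1-1 xrn4-3, 7.31 and 18.2 CPM in xrn4-3, 4.48 and 6.58 CPM in urt1-1, and 6.96 and 8.13 CPM in WT. Against WT its log2 fold change of 1.27 ± 0.53 missed the threshold (edgeR adjusted p = 0.121), and xrn4-3 replicate 2 lay between the urt1-1 xrn4-3 libraries. The other 11 Aux/IAA loci, IAA6, IAA8, IAA9, IAA10, IAA11, IAA15, IAA17, IAA18, IAA27, IAA29 and IAA32, ranged from -1.63 (IAA6) to 1.07 (IAA18) on the log2 scale, with no call. IAA6, IAA15, IAA26, IAA28, IAA29 and IAA32 had fewer than 20 reads in at least 1 library, where small changes were not detectable at this depth.

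The 7 ARF loci were closer to WT in fold change than the raised Aux/IAA loci. Their log2 fold changes were all positive, at 0.03 for ARF5, 0.07 for ARF1, 0.20 for ARF19, 0.28 for ARF18, 0.50 for ARF7, 0.60 for ARF11 and 1.04 for ARF9, and none passed the test, with 1 (ARF9) at an unadjusted p under 0.05 by either edgeR test. ARF9 came nearest, with 12.6 and 10.9 CPM in urt1-1 xrn4-3, 5.92 and 6.21 CPM in xrn4-3, 5.64 and 6.21 CPM in urt1-1, and 6.74 and 4.58 CPM in WT. Both urt1-1 xrn4-3 libraries of ARF9 were above the other 6, with a standard error of 0.38 and an adjusted p of 0.0506 (edgeR), and 0.0816 by the quasi-likelihood test. For ARF5, the partner of IAA12, the 95% interval of the log2 fold change ran from -0.81 to 0.88, and for ARF7 and ARF19, which act in lateral root formation, from -0.26 to 1.27 and from -0.57 to 0.97. In TAIR10.1 a gene on the opposite strand overlaps 254 bp of ARF7. At 5 of the 7 ARF loci (71.4%) each urt1-1 xrn4-3 library was higher than either WT library, beside 30.1% of all loci. At 0 of them each was lower, beside 23.0% of all loci.

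**Figure D3:**
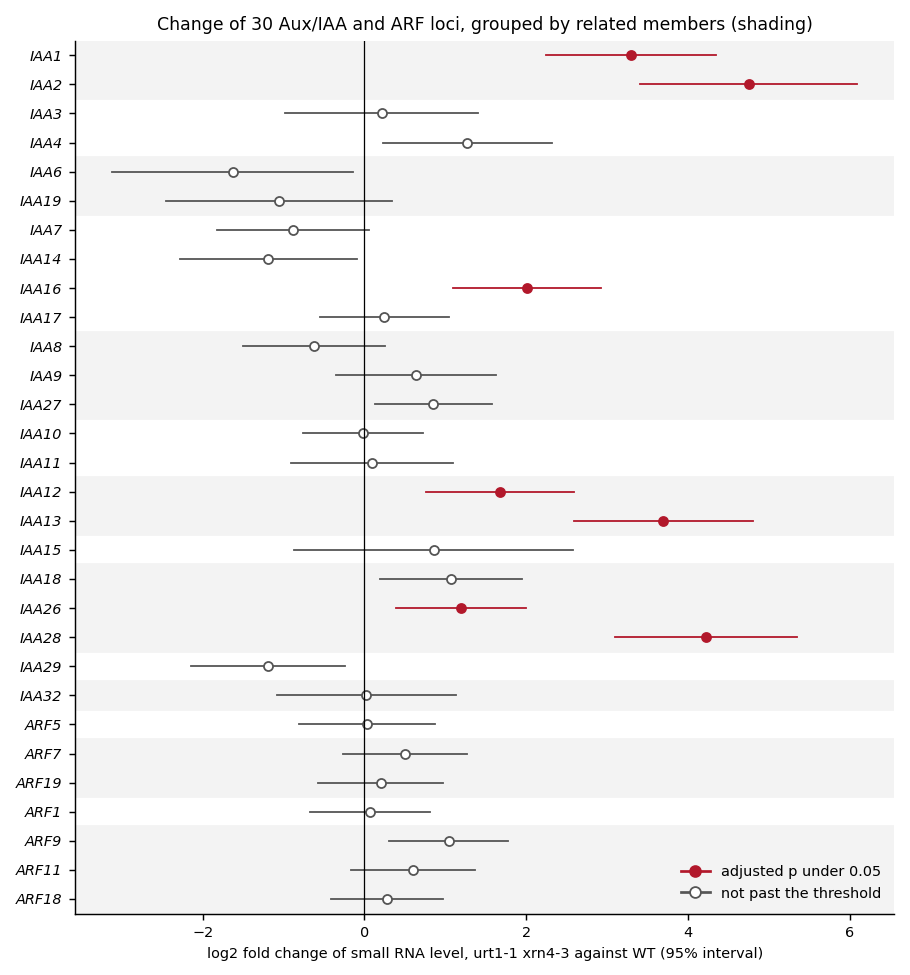
log2 fold change of small RNA level in urt1-1 xrn4-3 against WT for the 30 loci, with 95% intervals, grouped by related members (alternate shading). Filled red points passed an adjusted p of 0.05 (likelihood ratio test): both members of the IAA1 and IAA2 pair and of the IAA12 and IAA13 pair did, from 1.68 to 4.75, and the ARF points lie between 0.03 and 1.04.

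In xrn4-3 against WT, IAA2 was the member that passed the test, 1 of 30 (3.33%), where 4.19% of all loci were raised and 0.259% lowered. Its log2 fold change was 2.29 ± 0.69 (edgeR adjusted p = 0.0363), and the quasi-likelihood test did not call it (adjusted p = 0.169). The value rested on the library that stood apart: IAA2 had 133.5 CPM in xrn4-3 replicate 2 and 30.4 CPM in xrn4-3 replicate 1, and without replicate 2 the change was 0.85, with no call. IAA2 also lost its call without either urt1-1 library or either WT library. IAA28 was next, at 1.76 ± 0.60 (edgeR adjusted p = 0.0602). Of the other loci raised in the double mutant, IAA1 had 1.03, IAA16 0.70, IAA13 0.63, IAA12 0.58 and IAA26 0.13 on the log2 scale, none past the threshold. The median over the 30 loci was 0.10, beside 0.05 over all loci.

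In urt1-1 against WT no member passed by the likelihood ratio test, with 1 of 30 at an unadjusted p under 0.05 (IAA28, 1.35 ± 0.64 on the log2 scale), beside 2.10% of all loci, and the quasi-likelihood test and DESeq2 called none. Few loci were called at all: 0.0243% of all loci as raised and 0.00404% as lowered. At the 7 loci raised in the double mutant, the log2 fold changes of urt1-1 ran from -0.24 (IAA26) to 1.35 (IAA28). IAA14 was higher in both urt1-1 libraries, at 945 and 1268 CPM, than in both WT libraries, at 555 and 926 CPM, but its log2 fold change of 0.58 ± 0.56 did not pass (edgeR adjusted p = 1.00).

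The double mutant was next set against each parent. In urt1-1 xrn4-3 against xrn4-3, 4 of the 30 loci rose (13.3%), IAA1, IAA2, IAA13 and IAA28, with 1.73% of all loci raised and 0.311% lowered. Their log2 fold changes were 2.27 ± 0.52 for IAA1 (edgeR adjusted p = 0.00409), 2.47 ± 0.68 for IAA2 (0.0345), 3.06 ± 0.56 for IAA13 (0.000166) and 2.46 ± 0.50 for IAA28 (0.000581). By the quasi-likelihood test 0.166% of all loci were raised and none of the 30 members, the adjusted p of these 4 lying between 0.0695 and 0.221. At an unadjusted p under 0.05 both tests had 10 of the 30, where the likelihood ratio test had 10.4% of all loci and the quasi-likelihood test 9.59%. Without xrn4-3 replicate 2, which leaves 1 xrn4-3 library, the log2 fold changes of IAA1, IAA2, IAA13 and IAA28 were 2.89, 3.897, 3.597 and 3.47. In that fit more of all loci were called, in both directions. Without xrn4-3 replicate 1 the calls of IAA1 and IAA2 were lost, and likewise without urt1-1 xrn4-3 replicate 2, and IAA2 was also lost without any 1 of the WT or urt1-1 libraries. IAA12, IAA16 and IAA26 had 1.10, 1.31 and 1.06, short of the threshold.

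In urt1-1 xrn4-3 against urt1-1, 8 of the 30 loci rose (26.7%) and 1 fell, with 8.36% of all loci raised and 0.918% lowered. The 7 loci raised against WT rose here too, from 1.44 ± 0.45 (IAA26, edgeR adjusted p = 0.0169) to 4.53 ± 0.69 (IAA2, edgeR adjusted p = 1.27e-06), and the urt1-1 xrn4-3 libraries are the same in both comparisons. IAA4 joined them at 1.72 ± 0.55 (edgeR adjusted p = 0.0271). IAA14 was the locus that fell, by 1.77 on the log2 scale (SE 0.56, edgeR adjusted p = 0.0277). The quasi-likelihood test, with 5.99% of all loci raised, kept IAA1, IAA2, IAA13, IAA16, IAA26 and IAA28 and did not call IAA4, IAA12 or IAA14 (adjusted p = 0.0854, 0.0838 and 0.12). IAA14 also lost its call without either urt1-1 library or either urt1-1 xrn4-3 library. Of the 9 calls, 4 (IAA1, IAA2, IAA13 and IAA28) were left without urt1-1 replicate 1, and these and IAA16 without urt1-1 replicate 2 or without urt1-1 xrn4-3 replicate 2.

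The interaction asks whether urt1-1 changed a locus by another factor in plants without XRN4 than in plants with it. None of the 30 loci passed by the likelihood ratio test, where 0.0890% of all loci were raised and 0.0324% lowered, and neither the quasi-likelihood test nor DESeq2 called any. At an unadjusted p under 0.05 there were 5 of the 30 beside 5.20% of all loci, IAA1, IAA2, IAA13, IAA16 and IAA26, with log2 values from 1.302 ± 0.62 to 2.38 ± 0.81 and adjusted p from 0.48 to 0.905. Without xrn4-3 replicate 2, IAA2 was called. For IAA13 the 95% interval of the interaction ran from 0.79 to 3.96, and for IAA28 from -0.48 to 2.71.

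**Figure D4:**
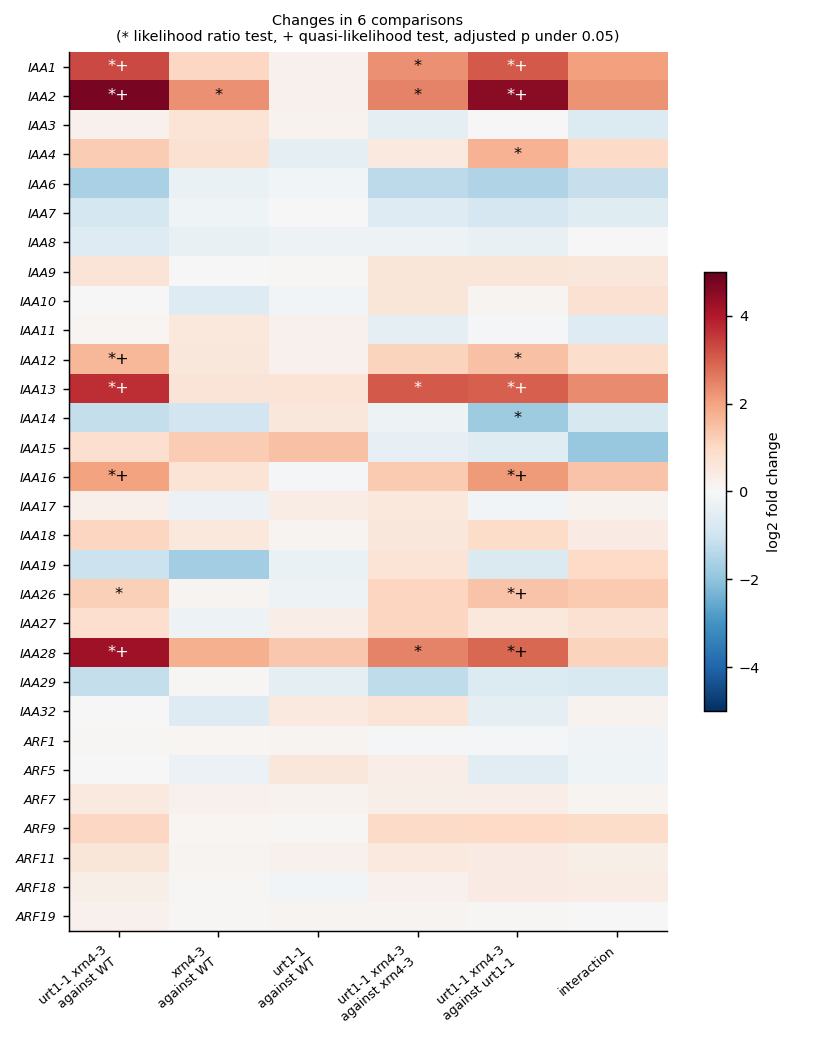
log2 fold change of the 30 loci in the 5 pairwise comparisons and the interaction (colour, red for higher and blue for lower in the genotype named before "against"), with an asterisk for calls of the likelihood ratio test and a plus for calls of the quasi-likelihood test. The columns of urt1-1 xrn4-3 hold 7 asterisks against WT, 4 against xrn4-3 and 9 against urt1-1, the xrn4-3 column holds 1 at IAA2, and the urt1-1 and interaction columns hold none.

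The make-up of the reads on the family differed between genotypes, and the total of the double mutant did not stand apart from that of WT. Summed over the 30 loci the level was 1056 and 1590 CPM in urt1-1 xrn4-3, 842 and 788 CPM in xrn4-3, 1254 and 1661 CPM in urt1-1, and 851 and 1323 CPM in WT. The urt1-1 xrn4-3, urt1-1 and WT ranges overlapped, and both xrn4-3 libraries lay below the other 6. IAA14 held 29.4% and 21.3% of these reads in urt1-1 xrn4-3, 60.9% and 32.3% in xrn4-3, 75.3% and 76.3% in urt1-1, and 65.2% and 69.96% in WT. The share of IAA2 was 26.7% and 39.3% in urt1-1 xrn4-3, 3.61% and 16.9% in xrn4-3, 1.27% and 1.41% in urt1-1, and 2.33% and 1.04% in WT. Without IAA14 the summed level was 746 and 1251 CPM in urt1-1 xrn4-3, 329.5 and 534 CPM in xrn4-3, 309 and 393 CPM in urt1-1, and 296 and 398 CPM in WT. The urt1-1 xrn4-3 libraries were above all others on that sum, and 2 against 2 libraries allow no exact p below 0.333.

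**Figure D5:**
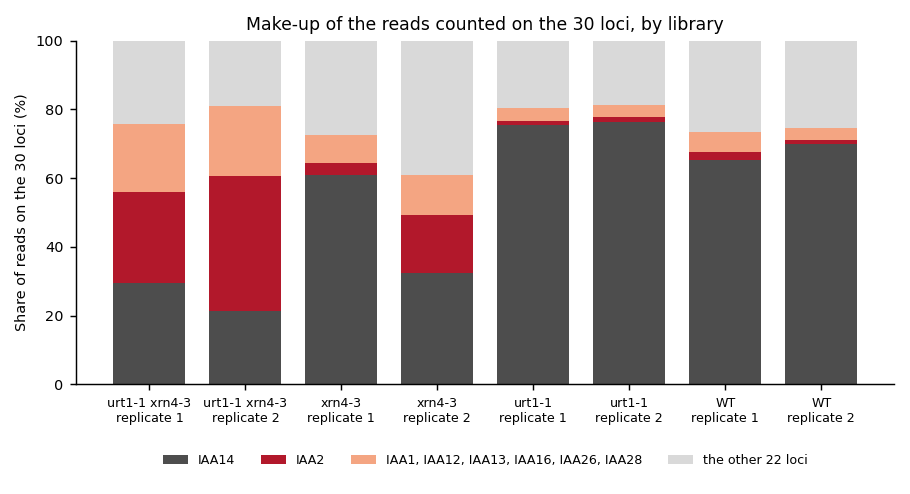
Share of the reads counted on the 30 loci that came from IAA14, from IAA2, from the other 6 loci raised in urt1-1 xrn4-3 and from the other 22 loci, by library. IAA14 made up 29.4% and 21.3% in urt1-1 xrn4-3 and 65.2% and 69.96% in WT, and xrn4-3 replicate 2 lies between xrn4-3 replicate 1 and the urt1-1 xrn4-3 libraries.

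Other genes of the pathway were read from lists of 50 loci. Of the 6 TIR1/AFB receptor loci, 3 rose in urt1-1 xrn4-3 against WT: TIR1, with 87.7 and 73.1 CPM in urt1-1 xrn4-3 and 23.7 and 23.3 CPM in WT (log2 fold change 1.77 ± 0.50, edgeR adjusted p = 0.00754), AFB2 (1.64 ± 0.55, edgeR adjusted p = 0.0366) and AFB5 (1.76 ± 0.45, edgeR adjusted p = 0.00262). AFB2 was lost by the quasi-likelihood test (adjusted p = 0.112), and AFB5 also rose against urt1-1, by 1.72 ± 0.46. Receptor levels above WT were seen in the single mutants too. In the urt1-1 libraries AFB2 stood at 290 and 297 CPM (WT 119 and 118, double mutant 442 and 298). AFB3 stood there at 322 and 372 CPM (WT 123 and 139), and TIR1 at 40.6 and 44.0 CPM. Each urt1-1 library was higher than either WT library at 3 of the 6 receptor loci and lower at 1, with no call. For xrn4-3 these numbers were 5 and 0, again with no call. These receptors are the partners of the degron shown above, and TIR1, AFB2 and AFB3 are known targets of miR393 that yield secondary siRNAs. None of the 3 SCF subunit loci, the 5 TOPLESS family loci or the 8 ARF loci that are microRNA or trans-acting siRNA targets was called in any of the 6 comparisons by the likelihood ratio test, although in urt1-1 xrn4-3 against WT 1 of these 16, a TOPLESS family locus, had an unadjusted p under 0.05.

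Of the 9 transport loci, the efflux carrier PIN3 and the influx carrier LAX3 rose in urt1-1 xrn4-3 against WT, by 2.74 ± 0.54 (edgeR adjusted p = 6.66e-05) and 2.13 ± 0.55 (edgeR adjusted p = 0.00293). PIN3 also rose in xrn4-3 against WT (2.20 ± 0.54, edgeR adjusted p = 0.0043, and 0.0692 by the quasi-likelihood test) and in urt1-1 xrn4-3 against urt1-1 (3.03 ± 0.54). It had 287 and 177 CPM in urt1-1 xrn4-3, 104 and 216 CPM in xrn4-3, 27.8 and 29.2 CPM in urt1-1, and 39.7 and 29.8 CPM in WT, so that both xrn4-3 libraries were above WT. Of the 11 synthesis loci, YUC9 rose in xrn4-3 against WT (1.51 ± 0.49, edgeR adjusted p = 0.0481, and 0.166 by the quasi-likelihood test), with 5.80 and 5.70 CPM in the xrn4-3 libraries and 2.59 and 1.35 CPM in the WT libraries. Of the 8 GH3 loci, whose enzymes conjugate auxin to amino acids, GH3.1, GH3.5 and GH3.6 rose in urt1-1 xrn4-3 against WT. GH3.6 had 736 and 1152 CPM in urt1-1 xrn4-3, 18.8 and 20.03 CPM in xrn4-3, 12.2 and 20.3 CPM in urt1-1, and 13.8 and 18.8 CPM in WT (log2 fold change against WT 5.86 ± 0.54, edgeR adjusted p = 9.11e-16). GH3.5 had 274 and 720.3 CPM in urt1-1 xrn4-3, 25.6 and 30.5 CPM in xrn4-3, 45.3 and 31.8 CPM in urt1-1, and 29.2 and 45.8 CPM in WT (3.73 ± 0.58, edgeR adjusted p = 4.61e-07). GH3.1 rose by 1.44 ± 0.43 (edgeR adjusted p = 0.0119). Against xrn4-3, GH3.5 and GH3.6 again rose, by 4.15 ± 0.58 and 5.60 ± 0.54 (edgeR adjusted p = 3.41e-07 and 1.84e-14), and against urt1-1 GH3.1, GH3.5 and GH3.6 did, GH3.1 not by the quasi-likelihood test (adjusted p = 0.078). In urt1-1 xrn4-3 against WT 8 of the 50 loci rose (16%) beside 10% of all loci, and none fell. These lists too were chosen with earlier results of these data known.

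In gene structure the 7 raised Aux/IAA loci and the other 16 overlapped in range. The mRNAs had a median length of 1391 nt (946 to 2025) at the raised loci, against 1312.5 nt (857 to 1950) at the others, and a median of 4 exons (2 to 5) against 4.5 (3 to 6). The encoded proteins had a median of 175 codons (168 to 269) at the raised loci, against 236 (129 to 338). The ARF loci were longer, with a median mRNA of 2998 nt and 13 exons. A motif of 3 leucines with 1 residue between each, the form of the TOPLESS-binding stretch, was encoded by all 23 Aux/IAA loci and by ARF19. The WT level did not sort the raised loci either: in WT they ranked between 4 (IAA16) and 30 (IAA28) of the 30 loci per kb.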

How the data were processed

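Small RNAs of 18 to 30 nt were size-selected from total RNA (3 µg) of plantlets and sequenced. Per the paper's methods, the authors mapped trimmed reads to TAIR10 with Bowtie 1.0.0, kept best alignments, and counted reads on mRNA loci with BEDTools 2.17.0 at default settings, which ignore strand. A read that matches several loci can be counted at each. The deposited table holds raw counts per locus for 8 libraries. It also holds a signal column per library, the authors' scaled values, which were proportional to the counts and were used only for that check.

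From the deposited counts, loci with low counts were removed with filterByExpr of edgeR 4.0.16 (count minimum 10) in R 4.3.3. Genotypes were compared with the likelihood ratio test after TMM scaling, in 1 model over all 8 libraries, p-values being adjusted by Benjamini and Hochberg's method across 24722 loci and called at 0.05. Every adjusted p is from that test unless the quasi-likelihood test of edgeR is named. Errors of log2 fold changes are standard errors, and intervals are 95%. CPM per kb divides by the locus length in the table. Sequences came from the RefSeq annotation of TAIR10.1, which shares a start or end with 43.4% of 24447 matched loci. Levels by library are given for the members called in any comparison and for the 3 uncalled members with the most reads per kb in WT (ARF9 was added after its values were seen), and pathway genes are named where called. Members and lists were chosen with earlier results of these data known. Other settings tried were DESeq2 1.42.0, the quasi-likelihood test, other library sizes, other filters, a fit on the genotypes compared, a replicate block, each library left out, a change of at least 2-fold, and the table without NIA1 and NIA2. The scripts were tested on simulated data. Between 6045353 and 30064224 reads per library set the precision. No column of per-sample values was left unmapped.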

Additional observations from a re-analysis of the deposited data

Results flagged for a closer look

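Outside the Aux/IAA and ARF loci, 2 loci of the auxin-conjugating GH3 family differed in the effect of urt1-1 between plants without and with XRN4, by the interaction term of the likelihood ratio test of edgeR. The interaction was 5.61 ± 0.76 on the log2 scale for GH3.6 (adjusted p = 2.04e-08) and 4.11 ± 0.82 for GH3.5 (adjusted p = 0.00241). The quasi-likelihood test of edgeR called neither (adjusted p = 0.0859 for GH3.6 and 0.562 for GH3.5). At GH3.6 both urt1-1 xrn4-3 libraries, at 736 and 1152 CPM, were above the other 6, which lay between 12.2 and 20.3 CPM.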

How the results depend on the processing

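IAA1, IAA2 and IAA13 were called in urt1-1 xrn4-3 against WT in all 18 alternatives, and IAA28 in the 17 in which it was tested. It was not tested where at least 10 reads were required in every library, since it had 7 in WT replicate 2. In that comparison the count of members called was 7, and it was 13 with genome-mapped reads as library size, adding IAA4, IAA18, IAA27, ARF7, ARF9 and ARF11, with 19.9% of all loci raised and their median up by 0.73. It ranged from 5 to 10 on leaving out 1 library. For xrn4-3 against WT the count was 1 (IAA2), and it was 0 by the quasi-likelihood test, 2 with library size only, 0 with only the genotypes compared, and 0 to 2 on leaving out 1 library (2, with IAA28, without xrn4-3 replicate 1, and 1, IAA19 lowered in place of IAA2, without WT replicate 1). For urt1-1 xrn4-3 against xrn4-3 the count of 4 was 0 by the quasi-likelihood test and 2 to 4 on leaving out 1 library. For urt1-1 xrn4-3 against urt1-1 the count of 9 was 12 with genome-mapped reads as library size (IAA9, IAA18, IAA27 and ARF9 gained, IAA14 lost, 20.9% of all loci raised) and 4 to 9 on leaving out 1 library, lowest without urt1-1 replicate 1, and 5 without urt1-1 replicate 2 or urt1-1 xrn4-3 replicate 2. The interaction had 0, and 0 to 1 on leaving out 1 library. With library size only, 5.894% of all loci were raised in xrn4-3 against WT. Leaving out 1 library also changed the share of all loci called, in every comparison with such a range. The ranges of member counts are therefore not particular to the members. The cause of the differences between settings was not tested where the setting itself does not give it.

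Replicates were grown at separate times per the study's methods, but the labels do not say that a number marks the same time in every genotype, so the numbers were not taken to pair the samples. Deviations of same-numbered libraries correlated between 0.036 and 0.356 over the 6 pairs of genotypes. With a replicate block the count was 10 in urt1-1 xrn4-3 against WT (adding IAA4, ARF9 and, lowered, IAA29) and 2 in xrn4-3 against WT (IAA2 and IAA28). It was 0 in urt1-1 against WT, 4 against xrn4-3, 9 against urt1-1 and 0 in the interaction. Of all loci, the block had 11.71% raised and 2.107% lowered in urt1-1 xrn4-3 against WT, and 4.971% raised in xrn4-3 against WT. For urt1-1 xrn4-3 it had 2.54% raised against xrn4-3, and 10.09% raised and 1.776% lowered against urt1-1. Each named log2 fold change was read in up to 18 alternatives and is counted once for each. Of these combinations of a value and a setting, 405 kept their side of the threshold and 56 lost the call. Another 4 (all of IAA4) gained it, and 0 called values reversed. The values of IAA3 (-0.18 to 0.83) and IAA19 (-2.18 to 0.29) in urt1-1 xrn4-3 against WT, which were not called, changed sign between settings.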
